A study of Sus scrofa with 5 samples.

Results

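Laminin and integrin genes encode the basement membrane network and the cell surface receptors that hold cells to it. The genes described here are the symbols of the pig count table that begin with a laminin chain name (LAMA, LAMB or LAMC and a digit) or with ITGA or ITGB, which gave 34 of 15235 symbols. Of these, 9 are laminin chains, 22 are integrin chains, and ITGB1BP1, ITGB1BP2 and ITGBL1 are named after integrins without being chains. All 34 passed the filter on low counts. LAMA2, LAMA5, LAMB4, ITGA5, ITGA7, ITGAD, ITGAX and ITGB3BP were not analysed in the pig table.

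The material was total RNA of homogenised kidney core biopsies from the second case of a pig-to-human kidney xenotransplantation, sequenced after ribosomal RNA depletion. The xenograft group held 1 biopsy each at 12, 24 and 48 h after transplantation, and the control group held 2 libraries (replicates 1 and 2) of untransplanted control kidney at 0 h. The genotype and age of the pig are not given in the sources used here, and 1 graft gave all 3 biopsies. Reads had been assigned to genes of the pig and, in a separate table, of the human genome. Library totals were 56129926 to 66169176 counts in the xenograft and 65919506 and 71108823 in the controls for the pig table, and 18770409 to 19738224 and 13386788 and 15058403 for the human table. The 13 mitochondrial genes took 11.8 to 14.5% of pig-table counts in the xenograft, against 21.9 and 33.4% in the controls. Kidney cell markers were counted in every library, but those of the proximal tubule summed to 1575 to 2556 CPM in the xenograft against 9551 and 9657 CPM in the controls.

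A laminin is a trimer of 1 alpha, 1 beta and 1 gamma chain that polymerises into the basement membrane sheet. In kidney, the trimer of LAMA5, LAMB2 and LAMC1 is the mature glomerular form, and LAMA3 and LAMB3 belong to the anchoring form of many epithelia. Integrins pair 1 alpha with 1 beta chain: ITGA3, ITGA6 and ITGB4 serve laminin receptors, ITGA1, ITGA2, ITGA10 and ITGA11 collagen receptors, and ITGAV with several beta chains receptors for the RGD peptide motif. ITGB2 and ITGB7 and their alpha partners are made by leukocytes. No sequences are shown, since neither the tables nor the annotation used here hold any.

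Laminin and integrin genes were more often higher than lower in the xenograft. Of the 34 tested, 15 rose and 0 fell by edgeR (quasi-likelihood test, p-values adjusted by the Benjamini-Hochberg method over all genes), against 18.5% of all 12620 genes tested that rose and 19.0% that fell. At an unadjusted p under 0.05, 2 were lower, ITGB7 and ITGB8, and DESeq2 called 1 lower, ITGB7. The median log2 fold change was 0.52 over the 34 and 0.03 over all genes. All 3 biopsies lay above both controls for 20 members and below both for 4, against 33.7% and 32.6% of all genes. Calls for 5 members, among them ITGA2, ITGB3, ITGB6 and LAMC3, held in every alternative fit. The other 10 were lost without control replicate 2, as were 6 of them without control replicate 1. In bulk tissue, more cells of a type and more RNA per cell cannot be told apart.

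Among laminin chains, the gamma chain genes LAMC1 and LAMC3 rose, as did 2 of 3 alpha chains, and none of the 3 beta chains was called. Of all genes tested, 18.5% rose and 19.0% fell. The beta chain gene LAMB3 was just short of the threshold and was called by DESeq2. LAMC1, the gamma chain of most kidney laminins, had 163, 223 and 240 CPM at 12, 24 and 48 h, against 88.4 and 64.2 CPM in control replicates 1 and 2. CPM here are counts scaled to the library size after edgeR's TMM correction. Each biopsy was above both controls, and the fold change was 2.74 (log2 fold change 1.45 ± 0.22, approximate SE, 3 biopsies against 2 controls, adjusted p = 0.0036). Without control replicate 2 the adjusted p was 0.0549. LAMC3, a gamma chain gene of more restricted expression, had 38.3, 54.7 and 47.7 CPM, against 18.1 and 9.06 CPM in the controls. The groups stood apart although the controls differed from each other, and LAMC3 rose 3.45-fold (log2 1.79 ± 0.32, adjusted p = 0.00725).

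LAMA3 and LAMB3, chains of the laminin that anchors many epithelia, were near the lower end of what was measured. LAMA3 had 75, 75 and 108 counts at 12, 24 and 48 h, against 24 and 27 counts in the controls. In CPM these were 1.04, 1.03 and 1.61 in the xenograft, against 0.402 and 0.518 in the controls, with no overlap. LAMA3 rose 2.66-fold (log2 1.41 ± 0.39, adjusted p = 0.0278), and the call was lost without control replicate 1 (adjusted p = 0.188) or 2 (0.137). LAMB3 had 0.967, 0.989 and 1.33 CPM in the biopsies, against 0.603 and 0.403 CPM in the controls. Its groups did not overlap either, but it did not pass (log2 1.11 ± 0.37, adjusted p = 0.053). DESeq2 (adjusted p = 0.0493) and the fit without the 12 h biopsy (0.0424) placed it past the threshold.

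LAMA4, the alpha chain of vascular and mesenchymal basement membrane, had 57.3, 75.4 and 115 CPM at 12, 24 and 48 h, against 32.7 and 19.7 CPM in the controls. The 48 h biopsy was highest and the groups did not overlap. LAMA4 rose 3.15-fold (log2 1.65 ± 0.36, adjusted p = 0.0148), but not without control replicate 2 (adjusted p = 0.111). Markers of endothelium summed to 639 to 698 CPM in the xenograft and 273 and 349 CPM in the controls. Of these 5 markers 3 were higher, and of all genes tested 18.5% were. Markers of fibroblasts and mesangium, all 4 higher, summed to 1671, 2861 and 5273 CPM at 12, 24 and 48 h, against 1019 and 733 CPM in the controls. The part of either in the laminin values was not tested.

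LAMA1, the alpha chain of embryonic basement membrane, had 6.98, 7.84 and 11.8 CPM at 12, 24 and 48 h, against 11.6 and 11.7 CPM in the controls. The 12 and 24 h biopsies were lower and the 48 h biopsy reached the controls, so that it did not pass (log2 -0.39 ± 0.24, adjusted p = 0.233). Leaving out the 48 h biopsy put it past the threshold (log2 -0.65, adjusted p = 0.0226). LAMB1, the beta chain of many developing and vascular basement membranes, had 388, 418 and 446 CPM, against 452 and 400 CPM in the controls. Its groups overlapped (log2 -0.03 ± 0.15, adjusted p = 0.89), with the log2 value between -0.12 and 0.06 as single libraries were left out. LAMB2, the beta chain of the mature glomerular trimer, had 45.3, 56.3 and 56.2 CPM, against 47.9 and 43.9 CPM in the controls, and did not pass either (log2 0.20 ± 0.14, adjusted p = 0.305).

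**Figure D1:**
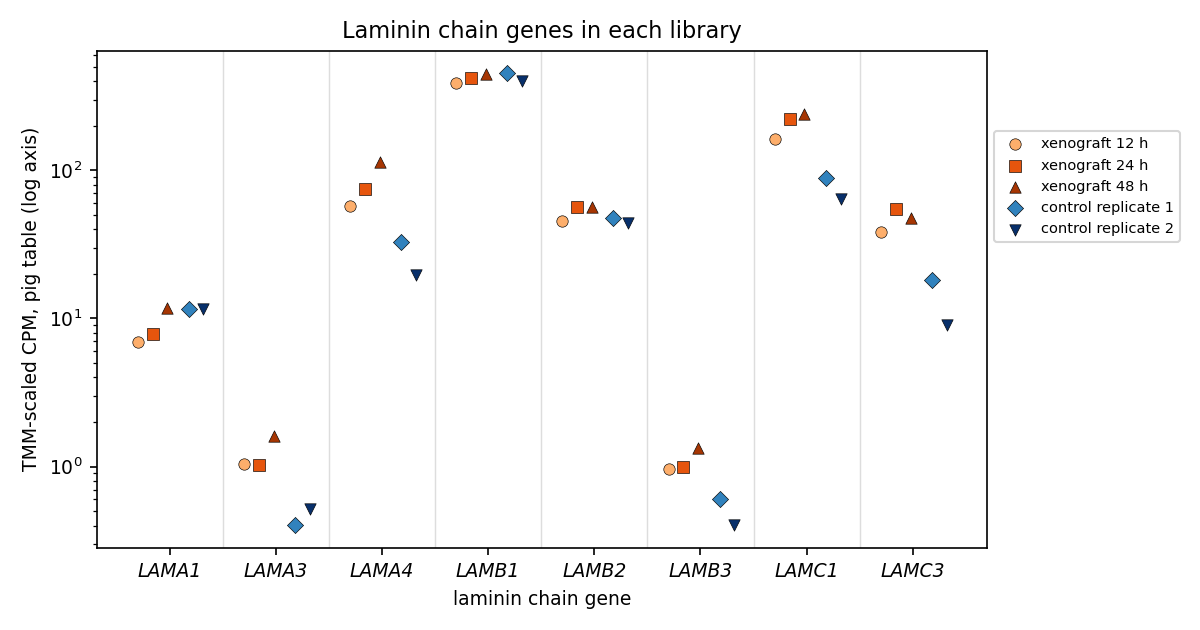
TMM-scaled CPM of 8 laminin chain genes of the pig table (log axis), 1 point per library, with the 3 xenograft biopsies left of the 2 controls for each gene. LAMC1 lies between 163 and 240 CPM in the biopsies against 64.2 and 88.4 CPM in the controls, while the points of LAMB1 and LAMB2 overlap.

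Ratios between laminin chains within a library also differed between the groups. Such ratios carry the lengths of both genes, so only their change between libraries is read, and these pairs were chosen after the values were seen, with no test. LAMB1 gave 239, 187 and 186 counts per 100 LAMC1 counts at 12, 24 and 48 h, against 511 and 623 in the controls. LAMA4 gave 821, 962 and 976 counts per 100 LAMA1 counts, against 281 and 169 in the controls. In both pairs the biopsies and the controls fell into ranges that did not overlap. LAMB2 per 100 LAMB1 counts moved less, at 11.7, 13.5 and 12.6 in the xenograft against 10.6 and 10.98 in the controls.

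Symbols outside the pig table could be read in the human table alone, where the counts in the controls cannot come from a recipient. LAMA5, the alpha chain of the glomerular trimer, had 881, 726 and 734 human-table counts at 12, 24 and 48 h, against 415 and 314 in the controls. LAMA2, the alpha chain of muscle and mesenchymal basement membrane, had 1293, 2341 and 2870 counts, against 1100 and 533. Neither passed (LAMA5 log2 0.46 ± 0.17, adjusted p = 0.0549, and LAMA2 log2 0.81 ± 0.40, adjusted p = 0.173). LAMA5 was called by DESeq2 (adjusted p = 0.0463) and with the human table scaled by the pig library sizes (log2 0.76, adjusted p = 0.00743), and LAMA2 without the 12 h biopsy (log2 1.10, adjusted p = 0.0181). ITGA5, the alpha chain of the fibronectin receptor, had 2744, 1718 and 1900 counts, against 298 and 205. Every biopsy exceeded both controls several-fold and ITGA5 rose (log2 2.44 ± 0.23, adjusted p = 6.5e-05), but reads of graft and recipient cells cannot be told apart for it here. ITGA7, the laminin receptor chain of muscle, had 207, 236 and 247 counts, against 150 and 73 (log2 0.43 ± 0.27, adjusted p = 0.248).

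Of 5 integrin chains typical of epithelium, ITGA2, ITGA3, ITGB4 and ITGB6 rose and ITGA6 did not pass, beside 18.5% of all genes that rose. The list was chosen with earlier results of these data known. Its median log2 fold change was 1.39, beside 0.03 over all genes. The largest change was that of ITGB6, whose product pairs with ITGAV and activates latent TGF-beta in epithelia. ITGB6 had 52.8, 40.2 and 53.5 CPM at 12, 24 and 48 h, against 9.56 and 9.06 CPM in the controls. All 3 biopsies were well above both controls, with the 24 h biopsy the lowest of them. ITGB6 rose 5.24-fold (log2 2.39 ± 0.17, adjusted p = 0.00043).

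ITGA3, a laminin receptor chain of podocytes and tubules, had 107, 118 and 171 CPM at 12, 24 and 48 h, against 49.6 and 48.7 CPM in the controls. It rose 2.69-fold (log2 1.43 ± 0.22, adjusted p = 0.00337), with the 48 h biopsy highest, but not without control replicate 2 (adjusted p = 0.0536). Podocyte markers summed to 89.9, 114 and 159 CPM against 325 and 254 CPM in the controls. All 4 were lower, beside 19.0% of all genes tested, and the part of podocytes in the ITGA3 values was not tested. ITGA2, a collagen receptor chain of distal tubule epithelium and other cells, had 24.4, 22.2 and 28.0 CPM, against 10.6 and 8.47 CPM. ITGA2 rose 2.61-fold (log2 1.39 ± 0.17, adjusted p = 0.00165), with each biopsy above both controls, and its RefSeq span overlaps that of MOCS2. Reads of overlapping genes cannot be told apart without a strand setting. Markers of the collecting duct summed to 482, 454 and 266 CPM in the xenograft against 185 and 191 CPM in the controls, with 2 of 4 higher. Those of the thick limb and distal tubule summed to 5455, 5553 and 3832 CPM against 3270 and 3083 CPM. Of these 3 markers 1 was higher and 1 lower, while of all genes tested 18.5% rose and 19.0% fell. The part of either segment in these values was not tested.

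ITGB4, which pairs with ITGA6 in hemidesmosomes, had 14.8, 19.99 and 21.0 CPM at 12, 24 and 48 h, against 9.83 and 9.92 CPM in the controls. The groups did not overlap, and ITGB4 rose 1.88-fold (log2 0.91 ± 0.19, adjusted p = 0.00977), though not without control replicate 1 (adjusted p = 0.0821) or 2 (0.0915). ITGA6 had 247, 232 and 215 CPM, against 233 and 212 CPM, and overlapped (log2 0.06 ± 0.13, adjusted p = 0.761). Its log2 value ran from -0.01 to 0.13 as libraries were left out. ITGB4 had 5.995, 8.62 and 9.74 counts per 100 ITGA6 counts in the xenograft, against 4.21 and 4.69 in the controls, and ITGA3 had 43.6, 50.9 and 79.2, against 21.2 and 23.0. Both ratios were higher in every biopsy than in either control, with the pairs again chosen after the values were seen.

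**Figure D2:**
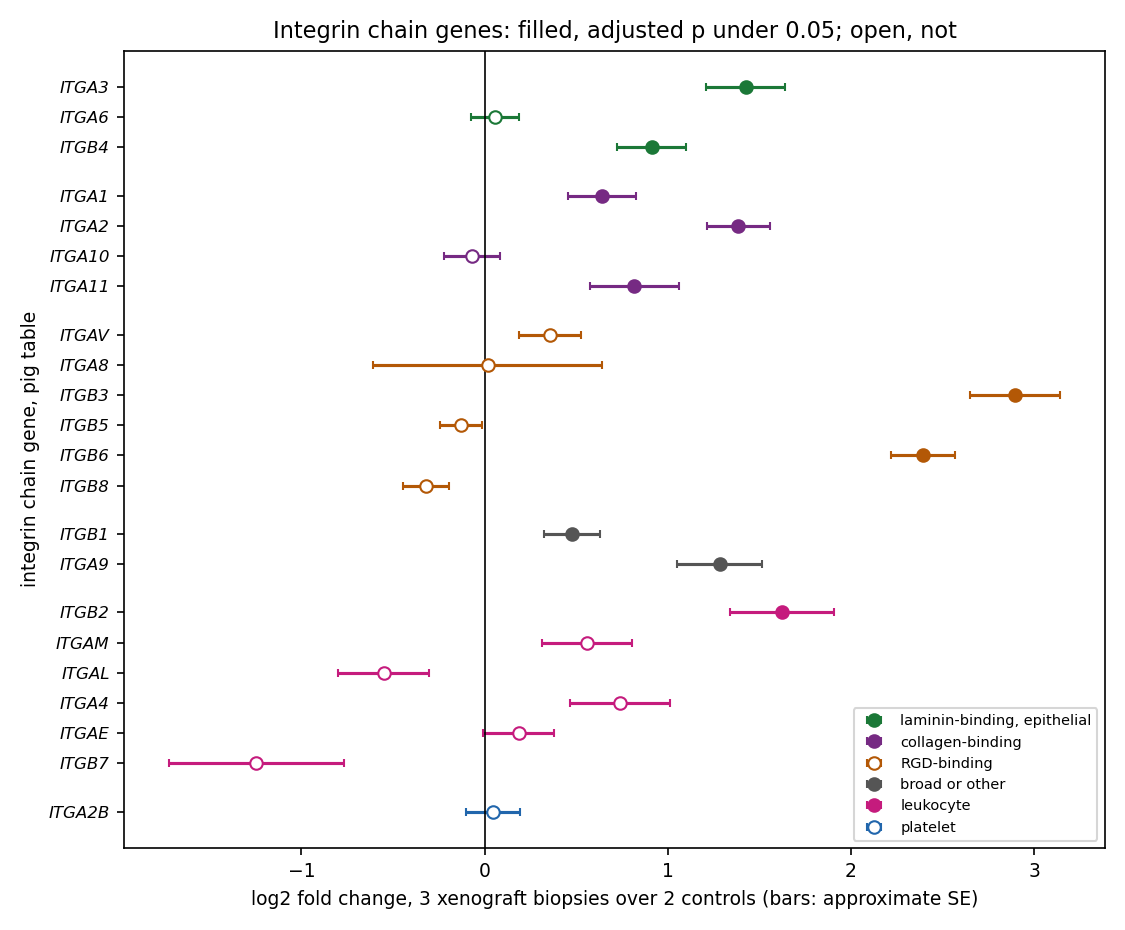
Log2 fold change of the 22 integrin chain genes of the pig table, 3 xenograft biopsies over 2 controls, with bars for the approximate SE and filled points for adjusted p under 0.05. Of 5 epithelial chains (ITGA2, ITGA3, ITGA6, ITGB4, ITGB6) 4 are filled, and of 6 leukocyte chains only ITGB2 is, beside 18.5% of all genes that rose.

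The beta chains that pair with ITGAV did not move together. ITGAV had 352, 330 and 260 CPM at 12, 24 and 48 h, against 258 and 233 CPM in the controls, and did not pass (log2 0.36 ± 0.17, adjusted p = 0.139). It did when the 48 h biopsy was left out (log2 0.48, adjusted p = 0.0435). ITGB3, which binds osteopontin and vitronectin with ITGAV and fibrinogen with the platelet chain ITGA2B, had 28.2, 25.7 and 38.6 CPM, against 4.72 and 3.55 CPM. The biopsies were all well above the controls. ITGB3 rose 7.45-fold (log2 2.90 ± 0.25, adjusted p = 0.000626).

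ITGB5 had 124, 119 and 126 CPM in the xenograft against 131 and 137 CPM in the controls. ITGB8, which like ITGB6 serves activation of latent TGF-beta, had 67.1, 65.4 and 58.0 CPM, against 83.2 and 75.2 CPM. Both lay below the controls in every biopsy by small margins, and neither passed (ITGB5 log2 -0.13 ± 0.11, adjusted p = 0.402, and ITGB8 log2 -0.32 ± 0.12, adjusted p = 0.0799). ITGB8 passed without the 12 h biopsy (log2 -0.36, adjusted p = 0.0487). ITGB6 gave 78.7, 61.4 and 92.2 counts per 100 ITGB8 counts at 12, 24 and 48 h, against 11.5 and 12.0 in the controls. ITGB3 gave 22.8, 21.6 and 30.6 counts per 100 ITGB5 counts, against 3.59 and 2.59. Both pairs, again chosen after the values were seen, had ranges that did not overlap.

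**Figure D3:**
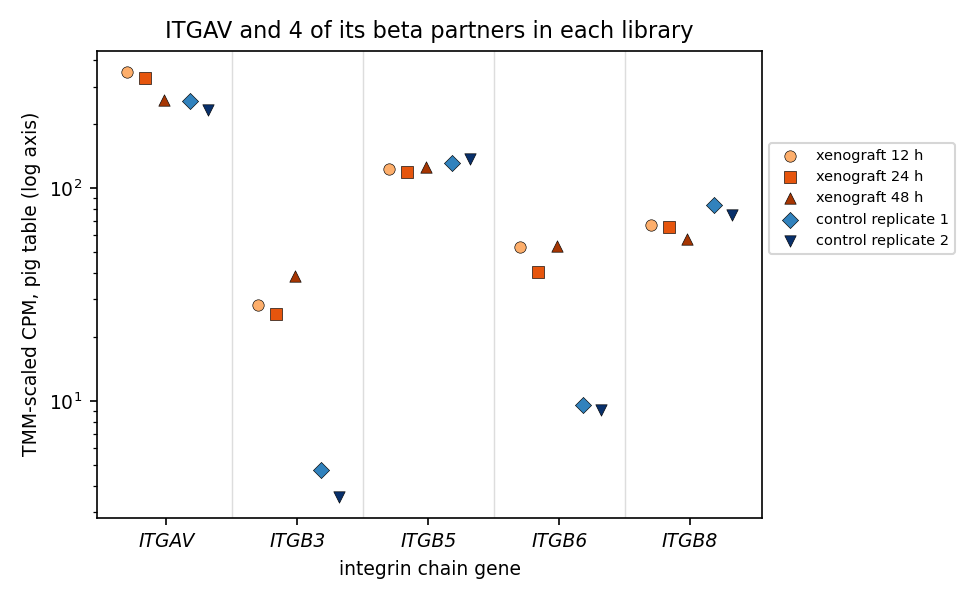
TMM-scaled CPM of ITGAV and of ITGB3, ITGB5, ITGB6 and ITGB8 in each library of the pig table (log axis), with the xenograft biopsies left of the controls. ITGB3 (25.7 to 38.6 against 3.55 and 4.72 CPM) and ITGB6 (40.2 to 53.5 against 9.06 and 9.56 CPM) stand apart between the groups, while ITGB5 and ITGB8 differ little.

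ITGB1, the beta chain shared by most matrix receptors, had 724, 621 and 701 CPM in the xenograft, against 504 and 475 CPM in the controls. It rose 1.39-fold (log2 0.48 ± 0.15, adjusted p = 0.0444), a call lost without either control, the 12 h or the 48 h biopsy (adjusted p from 0.0669 to 0.265). ITGA9, which binds tenascin and osteopontin, had 23.4, 17.1 and 25.3 CPM, against 10.5 and 7.51 CPM. It rose 2.43-fold (log2 1.28 ± 0.23, adjusted p = 0.00615), with adjusted p = 0.0747 without control replicate 2. The collagen receptor chain ITGA1 had 92.4, 83.4 and 70.5 CPM, against 61.3 and 44.1 CPM, and rose 1.56-fold (log2 0.64 ± 0.19, adjusted p = 0.0334). ITGA11, a collagen receptor chain of fibroblasts, had 9.31, 8.58 and 11.8 CPM, against 6.65 and 4.59 CPM, and rose 1.76-fold (log2 0.82 ± 0.24, adjusted p = 0.0354). For both, all biopsies lay above both controls. Both calls were lost without either control (adjusted p from 0.0509 to 0.249) or the 24 h biopsy (0.082 and 0.0521), that of ITGA11 also without the 48 h biopsy (0.0519), and the ITGA1 span also holds the gene PELO. The chondrocyte chain ITGA10 had 22.5, 19.2 and 17.0 CPM, against 20.8 and 20.3 CPM, and overlapped (log2 -0.07 ± 0.15, adjusted p = 0.752).

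ITGA8, a chain of mesangial cells and kidney mesenchyme, had 4.64, 10.99 and 22.0 CPM at 12, 24 and 48 h, against 16.2 and 8.54 CPM in the controls. The 12 h biopsy was below both controls, the 24 h biopsy between them and the 48 h biopsy above both. Against the controls it did not pass (log2 0.02 ± 0.63, adjusted p = 0.986). Over the 3 biopsies ITGA8 rose with time by a log2 slope of 1.40 ± 0.30 per 24 h (adjusted p = 0.0469), as did ITGBL1 (1.03 ± 0.21, adjusted p = 0.03) and ITGB7 (1.07 ± 0.25, adjusted p = 0.0488). These were 3 of 34 members, against 3.34% of all genes that rose with time, and 0 members fell, against 0.983% of all genes. At an unadjusted p under 0.05 1 member fell, ITGB1BP2, and DESeq2 called 0. None of the 3 slopes held in every alternative: ITGA8 was lost without the 12 h (adjusted p = 0.407) or 48 h biopsy (0.108) and without a filter on low counts (0.0559), ITGBL1 without the 12 h biopsy (0.0733), and ITGB7 without either control (0.109 and 0.115) or the 48 h biopsy (0.535). ITGBL1, a secreted relative of integrin beta chains, had 3.69, 7.68 and 11.9 CPM, against 11.3 and 9.83 CPM (log2 -0.45 ± 0.44 against the controls, adjusted p = 0.454). The fibroblast and mesangium markers given above also climbed from 12 to 48 h, and their part in these slopes was not tested.

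Leukocyte integrins of the pig table lay on both sides of the controls. Of 8 on the list, 6 were in the table, 1 rose and 0 fell, with a median log2 fold change of 0.37. The 1 of 6 that rose is 16.7%, near the 18.5% of all genes. At an unadjusted p under 0.05, and by DESeq2, 1 was lower, ITGB7. ITGB2, the beta chain common to the leukocyte receptors LFA-1 and Mac-1, had 12.3, 14.7 and 22.7 CPM at 12, 24 and 48 h, against 5.22 and 5.53 CPM in the controls. It rose 3.08-fold (log2 1.62 ± 0.28, adjusted p = 0.00551), with each biopsy above both controls, but not without control replicate 1 (adjusted p = 0.0607) or 2 (0.0663).

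The alpha partners of ITGB2 differed from it. ITGAM, the myeloid partner, had 9.60, 14.6 and 16.5 CPM, against 8.72 and 9.73 CPM (log2 0.56 ± 0.25, adjusted p = 0.113, and 0.0081 without the 12 h biopsy). The 12 h biopsy lay between the controls and the later ones above them. ITGAL, the lymphocyte partner, had 8.39, 9.51 and 14.8 CPM, against 16.5 and 15.5 CPM, with every biopsy below both controls. It did not pass over all 3 biopsies (log2 -0.55 ± 0.25, adjusted p = 0.123) but did over those at 12 and 24 h (log2 -0.83, adjusted p = 0.00729). ITGB7, the beta chain of gut-homing lymphocytes, had 0.608, 0.838 and 1.83 CPM, against 2.36 and 2.82 CPM, and was below the controls in every biopsy (log2 -1.25 ± 0.48, adjusted p = 0.0783). DESeq2 (adjusted p = 0.0467) and the fit without the 48 h biopsy (0.00416) called it lower. ITGA4, a chain of lymphocytes and monocytes, had 10.6, 11.8 and 9.38 CPM, against 8.17 and 4.51 CPM (log2 0.74 ± 0.27, adjusted p = 0.0709). All biopsies were above both controls, and DESeq2 (adjusted p = 0.0367) and the fit without control replicate 1 (0.0428) called it higher. ITGAE, which binds E-cadherin and whose span also holds GSG2, had 6.40, 5.81 and 5.82 CPM, against 5.05 and 5.51 CPM (log2 0.19 ± 0.19, adjusted p = 0.473).

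General leukocyte markers of the pig table summed to 78.9, 74.7 and 138 CPM in the xenograft against 51.6 and 53.1 CPM in the controls, with 3 of 4 higher. Those of monocytes and macrophages summed to 79.3, 97.8 and 125 CPM against 28.8 and 32.7 CPM, with 2 of 3 tested higher. LYZ had 0 counts in every library, biopsies and controls alike, and was not tested. Those of T and NK cells summed to 14.3, 12.8 and 11.4 CPM against 21.4 and 24.9 CPM. Of these, 4 of 5 were lower and 1 higher, while of all genes tested 18.5% rose and 19.0% fell. The part of these leukocyte classes in the integrin values was not tested. Nor was a share of human reads in these pig-table marker counts, since the assignment of reads that match both genomes is not given.

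The human table gave another pattern for the leukocyte chains. Of 7 tested there, 6 rose and 0 fell (0 also at an unadjusted p under 0.05 and by DESeq2), against 19.3% of all 18403 human-table genes that rose and 15.9% that fell. ITGB2 had 2116, 1800 and 3279 human-table counts at 12, 24 and 48 h, against 23 and 22 in the controls. All biopsies stood far above the background that pig tissue alone gave (log2 6.09 ± 0.36, adjusted p = 1.07e-05). ITGAM had 523, 402 and 426 counts, against 32 and 32 (log2 3.16 ± 0.24, adjusted p = 2.51e-05). ITGAX, a chain of dendritic cells and macrophages, had 90, 75 and 208 counts, against 2 and 5 (log2 4.47 ± 0.70). ITGAX is counted among the 6 that rose, but it passed the count filter only through the biopsies, so no p-value is given.

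ITGAL had 267, 253 and 573 human-table counts, against 72 and 47 in the controls, and was highest at 48 h (log2 1.99 ± 0.42, adjusted p = 0.00735). The call was lost without control replicate 1 (adjusted p = 0.0569) or 2 (0.0919). ITGA4 had 677, 324 and 669 counts, against 74 and 25 (log2 2.87 ± 0.48, adjusted p = 0.00354). ITGAE had 42, 30 and 48 counts, against 9 and 9, and rose (log2 1.50 ± 0.43, adjusted p = 0.0215) but not without control replicate 1 (0.141) or 2 (0.107). ITGB7 had 27, 25 and 65 counts, against 24 and 28, so that only the 48 h biopsy exceeded both controls (log2 -0.06 ± 0.48, adjusted p = 0.935). ITGAD had 1, 4 and 12 counts, against 2 and 0, and was not tested. The genes ITGAM, ITGAX and ITGAD are paralogs, and whether reads were shared between them was not tested.

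The human-table count of a gene was next set beside its pig-table count in the same library. For each 100 pig-table counts of ITGB2 there were 239, 168 and 215 in the human table at 12, 24 and 48 h, against 7.37 and 7.64 in the controls. ITGAM had 75.3, 37.7 and 38.4, against 6.14 and 6.31, and ITGAL 44.0, 36.6 and 57.6, against 7.32 and 5.84. ITGA4 had 88.6, 37.7 and 106, against 15.2 and 10.6. For each of these 4 genes every biopsy was above both controls and the ratio over pooled biopsies was more than 4 times that over pooled controls, as for 4.73% of 11220 genes tested in both tables. They were the only ones to do so of 32 members with a ratio in both groups. ITGB3 was left out of the 32, since it had 0 human-table counts in both controls. The ratio of ITGAE changed 3.07-fold and that of ITGB7 2.84-fold, and the median over the 11220 genes was 1.18-fold.

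Most laminin chains and the epithelial integrins kept nearly the same ratio in xenograft and controls. The pooled ratio changed 0.887- to 1.73-fold over the 9 laminin chains (median 1.04) and 1.04- to 1.23-fold over the 5 epithelial integrins (median 1.13). The largest change, that of LAMB3, rested on 8, 13 and 21 human-table counts in the biopsies against 4 and 2 in the controls. LAMA3 had as few, at 7, 12 and 25 against 5 and 2, and its ratio varied between libraries. For ITGB6 the values per 100 were 14.7, 13.7 and 12.9 in the biopsies, against 13.7 and 10.6 in the controls, and for LAMC1 the values were 31.7, 30.9 and 32.9, against 31.3 and 30.3. The biopsies and controls of these genes were close to each other, and the controls show how many human-table counts pig RNA alone gave. How reads that match both genomes were assigned is not given in the sources used here, so a share of human reads in the pig-table counts of ITGB2 was not tested.

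**Figure D4:**
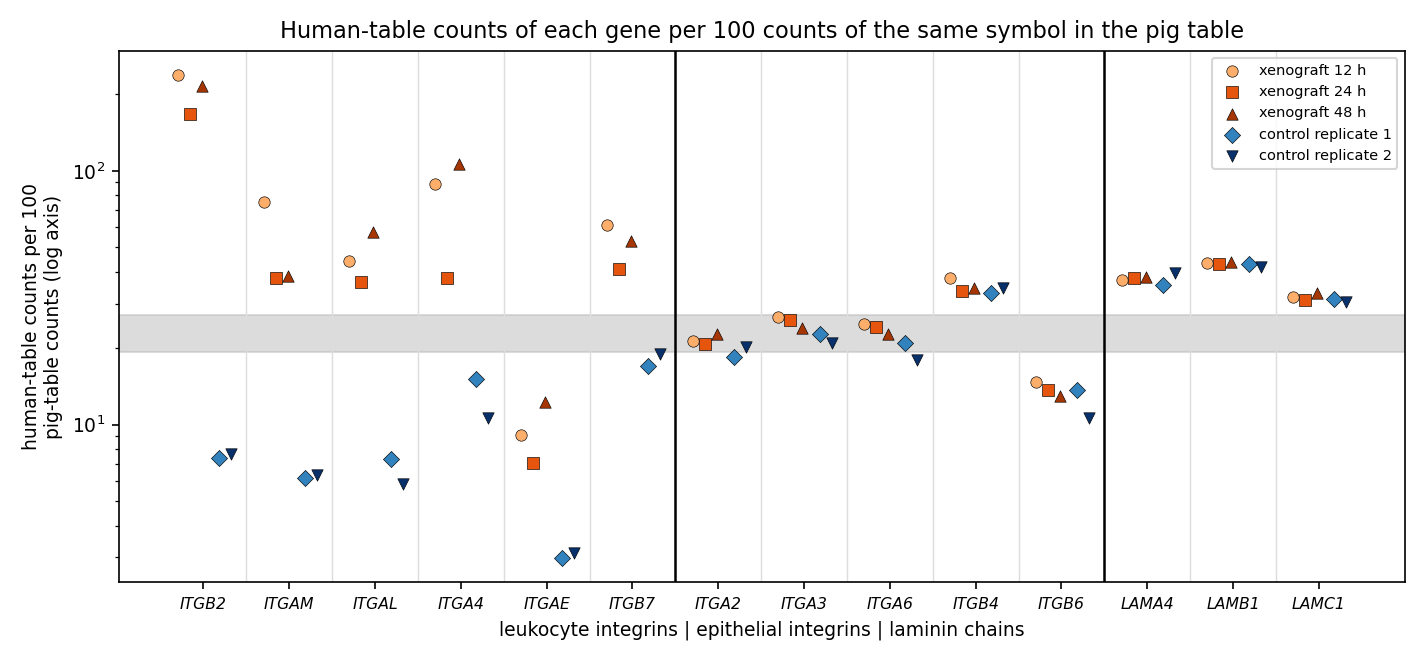
Human-table counts per 100 pig-table counts of the same symbol in each library (log axis) for 6 leukocyte integrins, 5 epithelial integrins and 3 laminin chains, with the xenograft biopsies left of the controls. The grey band spans the 5 library medians over 11220 genes, from 19.3 to 27.1. ITGB2 lies at 168 to 239 in the biopsies against 7.37 and 7.64 in the controls, whereas LAMB1 and LAMC1 barely differ.

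Blood cell markers were also read in the human table. Of 22 leukocyte markers 18 were tested and all 18 rose, beside 19.3% of all human-table genes. Genes near 0 in the controls pass the count filter only when high in the biopsies. For such genes the direction was fixed in advance, so no conclusion is drawn from the count. The neutrophil list summed to 1358, 1074 and 947 counts against 1 and 3 in the controls, and the monocyte and macrophage list to 14321, 10993 and 18841 counts against 173 and 171. T and NK markers summed to 425, 345 and 827 counts, against 5 and 2. B cell markers stayed at 6, 2 and 10 counts, against 1 and 0.

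The platelet chain ITGA2B overlapped in the pig table, at 42.1, 35.0 and 33.5 CPM against 38.1 and 33.2 CPM in the controls (log2 0.05 ± 0.15, adjusted p = 0.819). The value ran from -0.06 to 0.15 as libraries were left out. In the human table ITGA2B had 81, 46 and 45 counts, against 21 and 17, with each biopsy above both controls. It did not pass there (log2 0.95 ± 0.39, adjusted p = 0.085) except without the 48 h biopsy (adjusted p = 0.0455) or scaled by the pig table (0.0309). ITGB3 had 33, 18 and 14 human-table counts, against 0 and 0. This is at least 4.57-fold higher in mean CPM against a floor of 3 counts per control library. ITGB3 passed the count filter only through the biopsies, so the direction of its test was fixed in advance and no p-value is given. Its pig-table counts rose as well, at 2041, 1871 and 2594 against 282 and 185. Per 100 of them the human table held 1.62, 0.962 and 0.540 in the biopsies. The part of pig reads in the human-table counts of ITGB3 was not tested. Human-table platelet markers summed to 240, 210 and 101 counts, against 8 and 1, with PF4, GP9 and GP1BA at 0 in both controls. In the biopsies GP9 had only 3, 3 and 1 counts and GP1BA 1, 0 and 0, and neither was tested. The order over time was the same for ITGB3 and for this sum, and the part of platelets in the ITGB3 counts was not tested.

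Genes that link integrins to the cytoskeleton went both ways, with 12 of 28 tested higher and 3 lower, beside 18.5% and 19.0% of all genes (median log2 0.35). PARVB, an actin-binding partner of integrin-linked kinase, rose 6.33-fold (log2 2.66 ± 0.46, adjusted p = 0.00536). FERMT1 and FERMT3, the epithelial and blood cell kindlins that activate integrins, rose 4.39-fold (log2 2.13 ± 0.39, adjusted p = 0.00637) and 3.19-fold (log2 1.67 ± 0.34, adjusted p = 0.0101). FERMT3 had 7.71, 7.35 and 14.4 CPM in the biopsies, against 3.18 and 2.98 CPM. In the human table FERMT3 had 508, 430 and 919 counts at 12, 24 and 48 h, against 76 and 69 in the controls. PARVB had 150, 80 and 135 counts there, against 10 and 2, and FERMT1 65, 76 and 75, against 25 and 7. A share of human reads in the pig-table counts of these genes was not tested. The talin gene TLN2 (log2 -0.63 ± 0.16, adjusted p = 0.0228) and the adaptor genes BCAR1 (-0.58 ± 0.12, adjusted p = 0.00856) and PXN (-0.55 ± 0.12, adjusted p = 0.0138) fell. Without either control the calls of all but FERMT1 were lost (adjusted p from 0.0558 to 0.159), and TLN2 also without the 24 h biopsy (0.0677). ILK, the integrin-linked kinase gene, did not pass (log2 0.02 ± 0.13, adjusted p = 0.902) and was named after its values were seen.

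Of 20 basement membrane partners of laminin, 10 rose and 3 were lower (median log2 0.65), beside 18.5% and 19.0% of all genes. At an unadjusted p under 0.05, and by DESeq2, 4 were lower, with DST added (edgeR log2 -0.41 ± 0.13, adjusted p = 0.0507). COL17A1, a hemidesmosome collagen that binds ITGB4, had 8.61, 7.31 and 40.6 CPM, against 0.402 and 0.307 CPM (log2 5.72 ± 1.07, adjusted p = 0.00936). The 48 h biopsy was highest by far, and the call was lost without either control (adjusted p = 0.0711 and 0.0869). COL4A2, a chain of the ubiquitous collagen IV network, rose 3.13-fold (log2 1.65 ± 0.17, adjusted p = 0.000975), and the calcium-binding matrix gene SMOC2 3.37-fold (log2 1.75 ± 0.36, adjusted p = 0.0115, 0.0943 without control replicate 2). The glomerular collagen IV chains COL4A3 and COL4A4 fell, at log2 -1.58 ± 0.15 (adjusted p = 0.000723) and -1.16 ± 0.15 (adjusted p = 0.00183), as did the syndecan gene SDC1 (-1.42 ± 0.14, adjusted p = 0.000753). COL4A3 had 40.0, 42.1 and 50.2 CPM in the xenograft, against 143 and 120 CPM in the controls, with podocyte markers lower as well. Their part was not tested.

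Ligands of the integrins rose in 10 of 18 tested and fell in 0 (1 at an unadjusted p under 0.05 and by DESeq2, NPNT), with a median log2 fold change of 1.03, beside 18.5% of all genes that rose and 19.0% that fell. Osteopontin, bound by ITGAV with ITGB3 and by ITGA9, is encoded by SPP1, which had 7821, 4247 and 4569 CPM against 75.5 and 74.1 CPM in the controls (log2 6.21 ± 0.40, adjusted p = 0.000273). The tenascin gene TNC rose 5.61-fold (log2 2.49 ± 0.39, adjusted p = 0.0047, 0.0512 without control replicate 2), and FGG, a fibrinogen chain, 3.68-fold (log2 1.88 ± 0.51, adjusted p = 0.0313), which was lost without a filter on low counts (0.0513) or without either control (0.143 and 0.171). ICAM1, the endothelial ligand of ITGAL and ITGAM, had 55.5, 49.4 and 87.5 CPM, against 19.6 and 15.5 CPM (log2 1.87 ± 0.28, adjusted p = 0.00387, 0.0564 without control replicate 2). VCAM1, the ligand of ITGA4, had 119, 122 and 242 CPM, against 70.4 and 55.6 CPM (log2 1.36 ± 0.35, adjusted p = 0.0265, 0.1 and 0.175 without control replicate 1 or 2). Both were named after their values were seen, and both were highest at 48 h.

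The remaining symbols did not pass in either direction. ITGB1BP1, whose product binds the ITGB1 tail, had 32.1, 30.8 and 28.1 CPM in the xenograft, against 26.8 and 27.4 CPM in the controls (log2 0.16 ± 0.12, adjusted p = 0.327), and its span overlaps ASAP2. ITGB1BP2, a muscle protein gene, had 17, 6 and 2 counts, against 13 and 15 (log2 -1.10 ± 0.75, adjusted p = 0.281, 0.0353 without the 12 h biopsy).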

How the data were processed

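The authors deposited 2 tables of raw gene counts by symbol, made on a pig genome and on hg38, per the file headers and the submitters' processing notes. The aligner, counter, annotation, strand setting and any competition between the genomes are not given in the sources used here. Symbols in both tables numbered 14839. Of the human table, 147 Y-linked and X-inactivation symbols were removed.

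The count model was edgeR 4.0.16 under R 4.3.3: filterByExpr (minimum count 10, minimum total 15), TMM scaling, and the quasi-likelihood test with robust priors and Benjamini-Hochberg adjustment at 0.05, over 12620 pig and 18403 human genes. The xenograft was compared with the controls in both tables. A slope per 24 h was fitted within the xenograft in the pig table, where the controls add only to the estimate of spread. The approximate SE was taken from each log2 fold change and its F statistic (size over the root of F). DESeq2 1.42.0 and the other alternatives are given in the closing section. The scripts were tested on simulated data.

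Each member is described, except 1 that is not reported here. Of the other lists, up to 3 genes higher and 3 lower with the largest change among those called are named. Members and lists were chosen with earlier results of these data known. The controls differed by more than sampling noise (chi-square per degree of freedom 218 over 12327 genes). Nothing in the labels says that they came from separate animals, so p-values reflect only how these libraries vary, which may be technical. All 34 members matched the RefSeq table of Sscrofa11.1, which also gives LAMB2 as a synonym of LAMC1. Both symbols have rows of their own in the pig table.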

Additional observations from a re-analysis of the deposited data

Results flagged for a closer look

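ITGB2-AS1, an antisense symbol of the human table outside the comparisons above, had 15, 8 and 14 counts at 12, 24 and 48 h, against 0 in both controls. It stood out as signal in rows not otherwise used, above the limit of 3 counts that a count of 0 allows. Without a strand setting its reads cannot be told apart from those of ITGB2.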

How the results depend on the processing

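The 15 members called higher in the pig table numbered 10 without control replicate 1, 5 to 16 as single libraries were left out (5 without control replicate 2), and 17 by DESeq2. Members called lower numbered 0 to 3 as libraries were left out (2 without the 12 h biopsy, 3 without the 48 h biopsy) and 1 by DESeq2. Members rising with time numbered 3, and 7 by DESeq2, with 1 to 10 as libraries were left out (10 without the 24 h biopsy, 1 without the 48 h biopsy), and 0 to 1 fell. Where a biopsy is left out, the spread of the slope comes from the control pair alone. Human-table members called higher numbered 17, and 10 to 18 as libraries were left out (10 without control replicate 2), with 0 to 1 lower, and 1 lower by DESeq2 and by DESeq2's size factors (ITGB8 by DESeq2). Scaling the human table by the pig libraries moved the median log2 fold change of all genes to 0.35, against 0.05, called 5445 genes higher and 1713 lower, against 3547 and 2917, and called 24 members higher. Relative to that shift ITGB7, at 0.26 there, stayed below the median.

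Values near 0 changed sign as libraries were left out: ITGA10 (log2 -0.18 to 0.023), ITGA2B (-0.060 to 0.15), ITGA6 (-0.014 to 0.13), ITGA8 (-0.66 to 0.55) and LAMB1 (-0.12 to 0.061) in the pig table, and ITGB7 in the human table (-0.65 to 0.18). The causes were not tested. TMM without mitochondrial genes, DESeq2's size factors and no filter left 15 pig members higher and 0 lower. No paired analysis was possible because each time had 1 biopsy and the labels match no control to a biopsy. Depth limits LAMA3, LAMB3, ITGB1BP2 and the human-table counts of ITGAD, ITGAE and ITGB3.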
